A study of Mus musculus with 12 samples.

Results

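The experiment analysed here was a comparison of 2 embryonic stem cell lines, each examined with and without doxycycline, and it used all 12 of the 12 libraries of the series. It asked whether a gene's response to doxycycline differed between a line that carried wild-type FLAG-Lhx1 and a line that carried a mutant FLAG-Lhx1. Both were A2lox.cre embryonic stem cells, in which a doxycycline-inducible transgene is commonly placed beside the *Hprt* gene on the X chromosome. Embryoid bodies, aggregates in which such cells begin to differentiate, were grown for 2 days, and total RNA was sequenced. The 4 groups, with 3 libraries each, were the wild-type line without doxycycline at the 16 h time point, the wild-type line with doxycycline for 16 h, the mutant line without it, and the mutant line with it for 16 h. The change made in the mutant protein, the number of clones behind each line and whether replicates were separate cultures are not given in the labels. P-values therefore measure only the spread between these libraries, which may be technical, and a difference between the lines cannot be told apart from a difference between 2 clones.

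LHX1 is a LIM homeodomain transcription factor. Its LIM domains bind cofactors such as LDB1, and its homeodomain binds AT-rich DNA. In the mouse embryo the gene is active in the anterior mesendoderm and the organizer, and embryos without it fail to form the head. In aggregates at this stage most cells are expected to resemble epiblast, the pluripotent layer from which streak, endoderm and neural ectoderm arise.

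Total counts ran from 4289984 to 4850393 per library. Markers that define epiblast were present: none of 10 (*Pou5f1*, *Dnmt3b*, *Fgf5*, *Otx2* and others) was at 0, and their summed level ran from 5538 to 5839 CPM in the untreated and 5137 to 5229 CPM in the induced wild-type line, and from 6188 to 6442 and 6132 to 6282 CPM in the mutant line without and with doxycycline. The induced wild-type libraries were thus the lowest and the mutant libraries the highest. Levels are given throughout in CPM, each count relative to the TMM-adjusted total of its library. Of the libraries, 2 stood apart. Ribosomal *Rn45s* took 1.45% of the counts in induced wild-type library 2 and 0.0884% to 0.265% in the other 11. The hypoxia genes *Bnip3* (229 CPM) and *Adm* (10.98 CPM) in untreated wild-type library 3 were above the other untreated wild-type libraries, at 58.5 and 63.3 CPM and at 0.476 and 1.36 CPM. *Adm* was as high in untreated mutant library 1 (11.2 CPM), and in induced wild-type library 3 both genes (107 and 6.09 CPM) were above the others of that group. With both libraries left out, a choice made after the data were seen, 292 genes were called in the interaction, of which 235 were among the 307 called with all libraries.

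*Lhx1* itself was induced in both lines. In the untreated wild-type line its counts were 14, 8 and 5, and with doxycycline they were 1343, 1218 and 1346. In the mutant line they were 2, 2 and 2 without doxycycline and 1140, 1218 and 1141 with it. The groups with and without doxycycline did not overlap in either line, and reads of the transgene and of the endogenous gene are counted together under 1 symbol. Induced levels were 296 ± 9.37 CPM (SD, n = 3) in the wild-type line and 248 ± 12.6 CPM (SD, n = 3) in the mutant line, a log2 difference of 0.25 (SE 0.05, edgeR adjusted p = 6.93e-05). The interaction of *Lhx1*, defined throughout as the log2 response of the wild-type line minus that of the mutant line, was -1.97 (SE 0.49, edgeR adjusted p = 0.0212). It rests on the 27 and 6 counts of the untreated groups, and without untreated wild-type library 1 it was -1.48 with an edgeR adjusted p of 0.281. It also missed the threshold without any 1 of the 3 untreated mutant libraries, with edgeR adjusted p from 0.0626 to 0.0908.

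*Hprt*, which encodes a purine salvage enzyme, was the other gene called in the mutant line. Its levels were 10.2, 10.9 and 10.3 CPM in the untreated wild-type line and 43.9, 37.3 and 43.5 CPM after induction. Mutant libraries held 6.87, 7.33 and 8.13 CPM before and 19.95, 18.6 and 21.8 CPM after induction. The log2 responses were 1.99 (SE 0.13) and 1.43 (SE 0.16), and the difference between them, 0.55 (SE 0.22), was not called (edgeR adjusted p = 0.202).

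Of 12322 genes tested, 307 were called in the interaction (2.49%), where a call is an edgeR quasi-likelihood p, adjusted by Benjamini-Hochberg over all genes tested, under 0.05. The wild-type response exceeded the mutant response in 173 genes (1.4%) and lay below it in 134 genes (1.09%). In 77 of the 307 the difference was at least 2-fold, and 162 were called in each of the 12 fits that left out 1 library. DESeq2 called 132, of which 131 were among the 307. In the arms of this comparison, 655 genes (5.32%) were called in the wild-type response and 2 (0.0162%), *Lhx1* and *Hprt*, in the mutant response. The standard error of the interaction had a median of 0.16 over all genes tested, against 0.12 for the wild-type response.

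The larger arm was mostly that of the wild-type line. Over the 307 genes the median size of the wild-type response was 0.57 (log2) and that of the mutant response 0.08, beside medians of 0.10 and 0.07 over all genes tested. The interaction was made from both arms, so both values over the 307 genes describe the genes called and test nothing. The mutant response was the larger arm in 14 of the 307 genes. Among these were *Lhx1*, the replication-dependent histone genes *Hist1h3b* and *Hist1h3d*, *Galnt3*, a mucin-type glycosyltransferase (interaction -0.73, with -0.33 in the wild-type and 0.39 in the mutant line), and *Hsph1*, a heat shock protein of the HSP110 family (interaction 0.34, with 0.13 and -0.21).

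**Figure D1:**
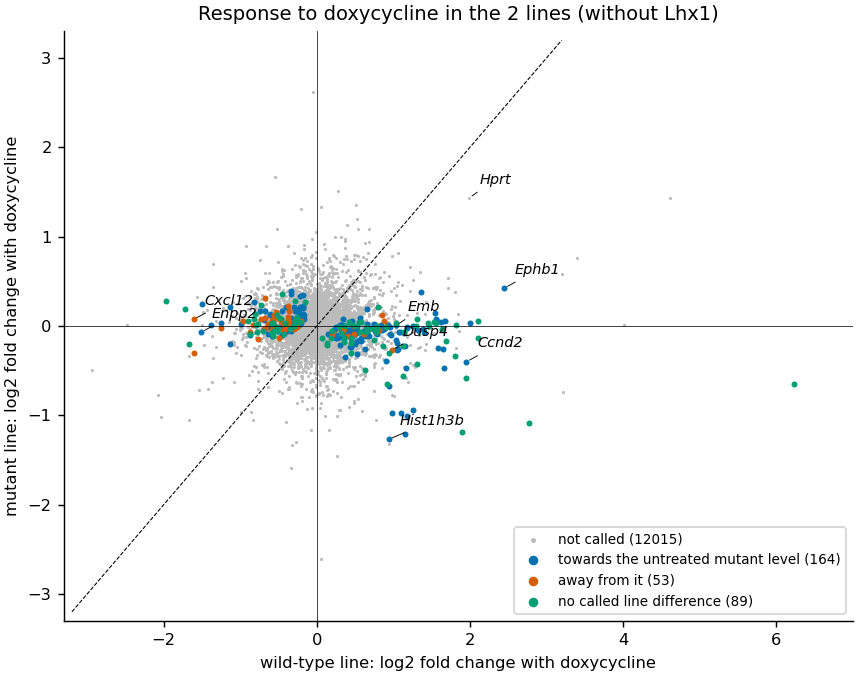
Log2 response to doxycycline in the wild-type line (horizontal axis) and in the mutant line (vertical axis), 1 point per gene tested, without *Lhx1*. The dashed line marks equal responses, and coloured points are called in the interaction and coloured by their group. Most coloured points lie near 0 on the vertical axis; *Hprt* lies near the dashed line, and the histone *Hist1h3b* lies below 0 in the mutant line.

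The 4 genes given as markers of the interaction were called in it in every one of the 12 fits that left out 1 library. *Emb* (chromosome 13, 117208536 to 117274415, mm10) encodes embigin, a glycoprotein that assists monocarboxylate transporters and cell adhesion. Its levels were 242, 255 and 238 CPM in the untreated and 534, 487 and 489 CPM in the induced wild-type line, and 388, 396 and 397 and then 399, 385 and 403 CPM in the mutant line. All induced wild-type libraries were the highest, all untreated wild-type libraries the lowest, and the mutant libraries overlapped with and without doxycycline. The interaction was 1.03 (SE 0.06, edgeR adjusted p = 1.27e-18).

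*Ccnd2* (chromosome 6, 127125162 to 127152193) encodes cyclin D2, which drives passage through G1. It stood at 6.90, 7.01 and 7.17 CPM in the untreated and at 25.4, 29.2 and 27.4 CPM in the induced wild-type line. The mutant line held 10.7, 13.03 and 9.62 CPM and, with doxycycline, 8.55, 7.90 and 8.86 CPM. Both mutant groups thus lay between the wild-type groups, with no overlap with either. The interaction was 2.35 (SE 0.24, edgeR adjusted p = 5.97e-11).

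*Dusp4* (chromosome 8, 34807297 to 34819894), a phosphatase that inactivates ERK, was at 114, 109 and 98.0 CPM in the untreated wild-type line and at 212, 212 and 208 CPM after induction. The mutant line held 85.2, 88.9 and 79.6 CPM, and 72.3, 61.7 and 76.4 CPM with doxycycline. The interaction was 1.25 (SE 0.10, edgeR adjusted p = 7.58e-15), and here the mutant line lay below the untreated wild-type line, on the side opposite to the induced level. *Enpp2* (chromosome 15, 54838901 to 54952892) encodes autotaxin, the secreted enzyme that makes lysophosphatidic acid. It went from 124, 131 and 131 CPM to 43.4, 44.9 and 47.2 CPM in the wild-type line. In the mutant line it was 101, 98.5 and 100.1 CPM untreated and 94.7, 93.1 and 97.4 CPM induced. The interaction was -1.44 (SE 0.09, edgeR adjusted p = 8.80e-18), and the induced wild-type level lay below that of every mutant library. In such bulk libraries fewer cells of a type and less RNA per cell cannot be told apart.

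The lines differed before doxycycline was added. Of the genes tested, 5611 (45.5%) were called between the untreated lines, 2832 (23%) higher in the mutant line and 2779 (22.6%) lower. Genes called in the interaction were therefore sorted by whether the wild-type response had the sign of the untreated mutant level minus the untreated wild-type level (towards), the opposite sign (away), or whether no line difference was called. The wild-type response itself did not have to be called for this sort. Of the 307, 218 (71%) had a called line difference. In 164 the wild-type level moved towards the untreated mutant level, in 54 it moved away, and in 89 no line difference was called. The 164 were 75.2% of the 218, beside 62.5% of all 5611 genes with a called line difference whose wild-type response had its sign. The sort is a description: the response and the line difference both subtract the same untreated wild-type libraries, and the untreated mutant libraries also enter the interaction.

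The upward and the downward genes were sorted differently. Where the wild-type response was upward, 106 of 120 genes with a called line difference moved towards the mutant level (88.3%), beside 63.1% of all 2777 genes with a called line difference and a response above 0. Where it was downward, 58 of 98 did (59.2%), beside 61.9% of 2834 genes, a share near the background. With the induced in place of the untreated mutant level, the upward share was 80.4% (90 of 112, background 62.6%) and the downward share 53.8% (49 of 91, background 61.5%). Without both libraries that stood apart, 89 upward genes moved towards and 13 away, and 53 downward genes moved towards and 41 away. No gene passed from towards to away in any alternative tried here. Sorting by the sign of the line difference alone, or by a line difference of at least 2-fold, uses the same signs and could not move a gene. The other alternatives sorted only genes called in both the interaction and the line difference, which leaves little room for a change of sign.

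**Figure D2:**
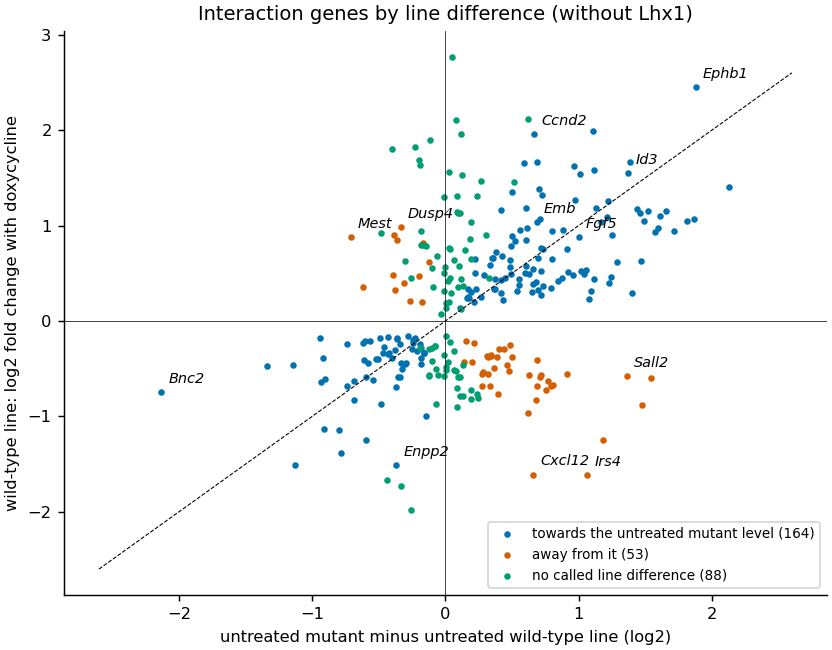
The genes called in the interaction, without *Lhx1* and 1 gene beyond the vertical axis, by the log2 difference of the untreated lines (horizontal axis, mutant minus wild-type) and the log2 wild-type response (vertical axis). On the dashed line the induced wild-type level equals the untreated mutant level. Of the upward genes with a called line difference, most lie in the upper right (towards); the downward genes divide between lower left and lower right.

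The sort fixes whether a gap to the mutant level can close, so the gaps of each group only describe it. Over all 307 genes the median gap between the wild-type and the untreated mutant level was 0.39 (log2) before and 0.46 after induction, and it was smaller after induction in 153. Over all genes tested it was 0.26 and 0.25. In the 106 upward genes that moved towards, the median gap was 0.71 before and 0.32 after induction; 56 stopped short of the mutant level and 50 went past it. In the 58 downward genes the median gap was 0.45 before and 0.19 after, with 33 short and 25 past. The gap was smaller after induction in 99 of the 106 and in 51 of the 58. Towards thus gives a direction alone, and a gene could pass the mutant level and end further from it. *Ccnd2*, *Enpp2*, *Pou3f1* and *Nphs1* did so. In the 54 genes that moved away the median gap widened from 0.40 to 0.98, and in the 89 with no called line difference from 0.10 to 0.69.

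Among the upward genes that moved towards were *Ccnd2* and *Emb*, both of which passed the mutant level, and receptors and ligands of the epiblast. *Ephb1*, a receptor for ephrin-B ligands, was at 2.14, 0.904 and 1.79 CPM in the untreated and 8.68, 9.74 and 8.26 CPM in the induced wild-type line. In the mutant line it was at 6.01, 5.50 and 6.42 CPM, and at 6.14, 9.19 and 8.65 CPM with doxycycline, so that the induced groups of the 2 lines overlapped. Its interaction was 2.02 (SE 0.38, edgeR adjusted p = 0.000239).

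*Fgf5*, a growth factor typical of the epiblast, was at 87.8, 90.4 and 80.9 CPM and, after induction, at 166, 161 and 151 CPM in the wild-type line. The mutant line held 170.5, 167 and 181 CPM untreated and 178, 163 and 167 CPM induced. The induced wild-type level minus the untreated mutant level of *Fgf5* was thus -0.12 (log2), and the interaction was 0.91 (SE 0.08, edgeR adjusted p = 2.77e-12). *Id3*, a target of BMP signalling that blocks basic helix-loop-helix factors, ended past the untreated mutant level (0.18, log2). It rose from 16.4 ± 2.67 to 47.9 ± 3.81 CPM in the wild-type line and was 42.3 ± 3.95 and 44.5 ± 5.90 CPM in the mutant line (SD, n = 3 each; interaction 1.48, SE 0.16, edgeR adjusted p = 5.84e-10).

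*Eomes*, a T-box factor of the primitive streak, was at 8.56, 7.69 and 11.9 CPM in the untreated wild-type line and 35.0, 27.1 and 24.8 CPM after induction. The mutant libraries ran from 17.3 to 20.6 CPM over both groups, above all untreated and below all induced wild-type libraries. The interaction was 1.58 (SE 0.21, edgeR adjusted p = 4.08e-07). *Pax6*, which directs eye and forebrain development, went from 3.97 ± 0.113 to 9.93 ± 0.256 CPM in the wild-type line beside 6.597 ± 0.769 and 6.36 ± 1.32 CPM in the mutant line (SD, n = 3 each). Its interaction was 1.36 (SE 0.31, edgeR adjusted p = 0.0046), and DESeq2 did not call it (adjusted p = 0.1002). *Gpc4*, a heparan sulfate proteoglycan of the cell surface, rose from 13.2 ± 1.91 to 29.3 ± 2.45 CPM and stayed under the 37.8 ± 4.96 CPM of the untreated mutant line (SD, n = 3; interaction 1.38, SE 0.17, edgeR adjusted p = 5.31e-08). *Lamb1*, a laminin chain of basement membranes, had a smaller interaction of 0.43 (SE 0.10, edgeR adjusted p = 0.00403, DESeq2 adjusted p = 0.0615).

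**Figure D3:**
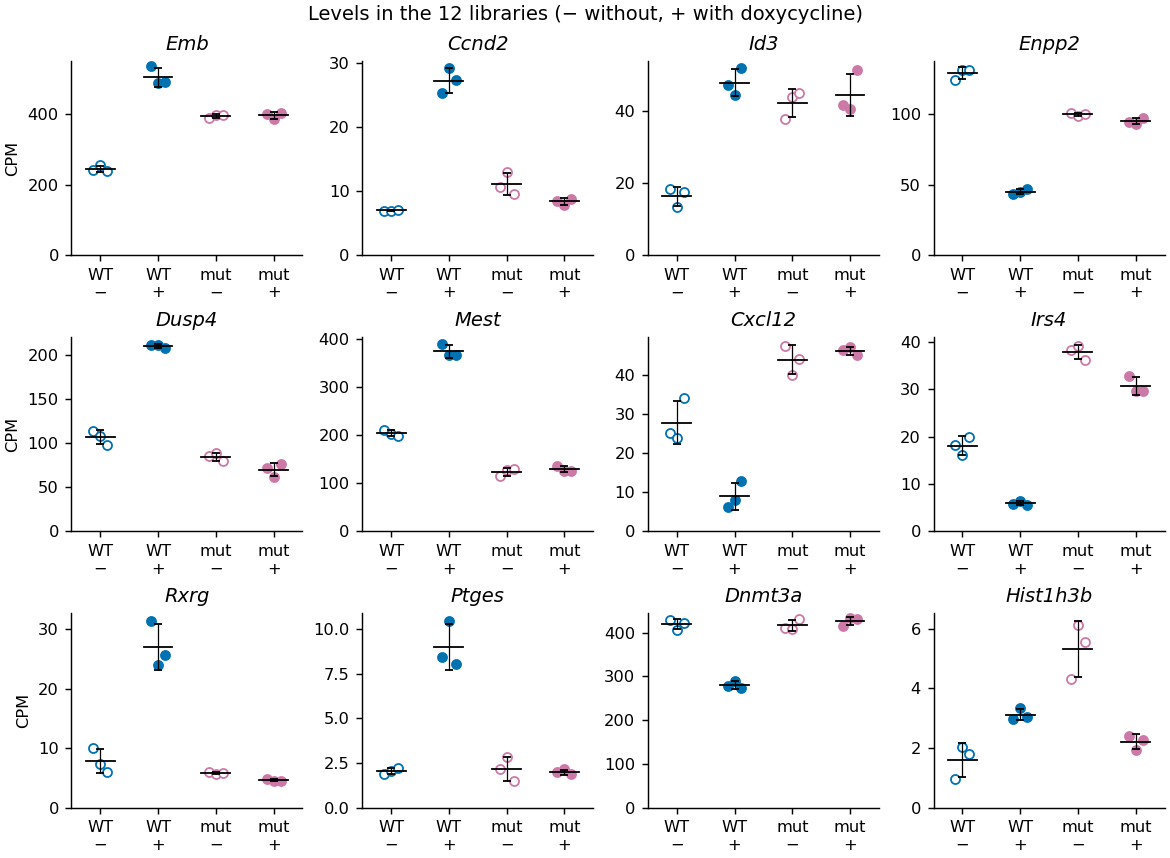
CPM (TMM-scaled) of 12 genes in the 12 libraries, 1 panel per gene; points are libraries, bars the mean and its SD (n = 3), open points untreated and filled points induced. The top row holds genes that moved towards the mutant level, the middle row genes that moved away, and the bottom row *Rxrg*, *Ptges* and *Dnmt3a*, with no called line difference, and *Hist1h3b*, whose mutant levels are lower with doxycycline.

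Downward genes that moved towards the mutant level included *Pou3f1*, a POU factor of the formative epiblast and later neural cells. It stood at 221, 214 and 194 CPM in the untreated and 105, 105 and 106 CPM in the induced wild-type line, and at 180.1, 176 and 212 and then 183, 203 and 192 CPM in the mutant line. Untreated wild-type and mutant libraries overlapped, and the line difference that sorted it was small (-0.15, SE 0.06, edgeR adjusted p = 0.0383). The induced wild-type level went past the mutant level, with a log2 difference of -0.85, and the interaction was -1.02 (SE 0.09, edgeR adjusted p = 3.00e-12).

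*Nphs1*, which encodes the adhesion protein nephrin, fell from 30.3 ± 3.37 to 12.7 ± 0.830 CPM in the wild-type line and was 19.99 ± 2.50 and 20.4 ± 0.495 CPM in the mutant line (SD, n = 3; interaction -1.28, SE 0.19, edgeR adjusted p = 1.48e-06). *Tcerg1l*, a relative of a transcription elongation regulator, fell from 12.5 ± 1.16 to 5.68 ± 0.432 CPM, beside 6.65 ± 1.69 and 7.74 ± 0.562 CPM in the mutant line (SD, n = 3). Its interaction was -1.35 (SE 0.29, edgeR adjusted p = 0.00204, DESeq2 adjusted p = 0.0516). *Irf1*, a transcription factor of the interferon response, stood at 97.5, 93.1 and 94.6 CPM and, with doxycycline, at 64.9, 56.8 and 54.8 CPM in the wild-type line. The 6 mutant libraries ran from 69.3 to 81.5 CPM, between those groups, and the interaction was -0.76 (SE 0.10, edgeR adjusted p = 5.40e-07).

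Of the genes that moved away from the mutant level, 40 were downward and 14 upward. *Cxcl12*, the chemokine ligand of CXCR4, was at 25.2, 24.0 and 34.1 CPM in the untreated and 6.17, 8.08 and 12.8 CPM in the induced wild-type line. In the mutant line it was at 47.4, 40.1 and 44.1 CPM, and at 46.3, 47.2 and 45.1 CPM with doxycycline. The untreated mutant line exceeded the untreated wild-type line by 0.66 (log2), and the induced wild-type level minus the untreated mutant level was -2.27. The interaction was -1.68 (SE 0.21, edgeR adjusted p = 8.32e-07).

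*Irs4*, an adaptor of insulin and IGF receptors, went from 18.3, 16.1 and 19.9 CPM to 5.71, 6.41 and 5.65 CPM in the wild-type line, while the mutant line held 38.2, 39.1 and 36.1 and then 32.9, 29.7 and 29.7 CPM. The interaction was -1.31 (SE 0.20, edgeR adjusted p = 6.05e-06), and the mutant response of -0.30 (SE 0.10) was not called. *Dcaf12l1*, a relative of a substrate receptor of CUL4 ubiquitin ligases, fell from 19.5 ± 3.06 to 8.24 ± 2.13 CPM, beside 44.2 ± 2.33 and 43.4 ± 3.05 CPM in the mutant line (SD, n = 3; interaction -1.22, SE 0.19, edgeR adjusted p = 1.13e-05). *Stk39*, a kinase that regulates ion cotransporters, fell from 28.1 ± 1.87 to 15.8 ± 1.74 CPM, beside 44.8 ± 1.81 and 45.3 ± 2.31 CPM (SD, n = 3; interaction -0.84, SE 0.15, edgeR adjusted p = 0.00016).

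The surface proteins *Itga3*, an integrin that binds laminins, and *Sema6a*, a membrane-bound guidance cue, moved in the same sense. *Itga3* stood at 42.2 ± 3.48 and 26.3 ± 1.56 CPM in the wild-type line and at 72.8 ± 1.88 and 71.1 ± 4.54 CPM in the mutant line (SD, n = 3; interaction -0.64, SE 0.12, edgeR adjusted p = 0.000381). *Sema6a* stood at 62.2 ± 8.77 and 39.0 ± 2.89 CPM, beside 108 ± 7.12 and 106 ± 0.570 CPM (SD, n = 3; interaction -0.65, SE 0.11, edgeR adjusted p = 9.39e-05). *Pou5f1* encodes the core pluripotency factor OCT4. Its levels were 1225, 1173 and 1183 CPM untreated and 1070.0, 985 and 1045 CPM induced in the wild-type line, and 1292 to 1436 CPM over the 6 mutant libraries (interaction -0.26, SE 0.06, edgeR adjusted p = 0.00473).

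Upward genes that moved away included *Mest*, an imprinted gene expressed from the paternal copy. It was at 210.3, 204 and 198 CPM in the untreated and 390.4, 366 and 368 CPM in the induced wild-type line. The mutant line held 115, 128 and 130.04 CPM, and 136, 125 and 126 CPM with doxycycline, below every wild-type library. The interaction was 0.83 (SE 0.08, edgeR adjusted p = 4.85e-12). *Ifitm1*, an interferon-inducible membrane protein, rose from 69.9 ± 4.62 to 131 ± 6.42 CPM beside 53.6 ± 3.21 and 53.1 ± 3.44 CPM in the mutant line (SD, n = 3; interaction 0.91, SE 0.11, edgeR adjusted p = 4.74e-09). *Hdac6*, a deacetylase of tubulin, rose from 100.3 ± 5.72 to 177 ± 2.28 CPM beside 89.3 ± 5.26 and 86.5 ± 3.45 CPM (SD, n = 3; interaction 0.86, SE 0.09, edgeR adjusted p = 1.26e-10).

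In the 89 genes with no called line difference the untreated lines started at levels that were not distinguished, and 54 moved up and 35 down. *Rxrg*, a retinoid X receptor, was at 9.99, 7.23 and 6.05 CPM untreated and 31.3, 24.0 and 25.7 CPM induced in the wild-type line, and ran from 4.49 to 6.01 CPM in the 6 mutant libraries (interaction 2.14, SE 0.29, edgeR adjusted p = 5.43e-07).

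*Ptges*, which makes prostaglandin E, rose from 2.06 ± 0.171 to 8.98 ± 1.29 CPM in the wild-type line and was 2.16 ± 0.676 and 1.99 ± 0.142 CPM in the mutant line (SD, n = 3; interaction 2.23, SE 0.48, edgeR adjusted p = 0.00201). *Dll3*, a Notch ligand, rose from 9.40 ± 0.123 to 20.6 ± 1.26 CPM, beside 10.1 ± 1.49 and 8.58 ± 2.41 CPM (SD, n = 3; interaction 1.35, SE 0.25, edgeR adjusted p = 0.000187). *Sfrp1*, a secreted WNT antagonist, rose from 28.3 ± 2.91 to 48.4 ± 2.29 CPM, beside 28.9 ± 2.59 and 27.6 ± 2.38 CPM (SD, n = 3; interaction 0.83, SE 0.15, edgeR adjusted p = 0.000129). For each of these 3 genes the induced wild-type libraries lay above the other 9.

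*Dnmt3a*, a de novo DNA methyltransferase, showed the same separation downward. It stood at 430.3, 407 and 422 CPM in the untreated and 279, 291 and 273 CPM in the induced wild-type line, and at 409 to 433 CPM over the 6 mutant libraries. The interaction was -0.61 (SE 0.06, edgeR adjusted p = 5.97e-11). *Foxd3*, a forkhead factor of epiblast and neural crest, fell from 51.4 ± 5.86 to 29.2 ± 2.18 CPM beside 58.7 ± 2.79 and 61.9 ± 7.20 CPM in the mutant line (SD, n = 3; interaction -0.90, SE 0.13, edgeR adjusted p = 2.06e-06). *Mycl1*, a MYC family member, had an interaction of -0.80 (SE 0.14, edgeR adjusted p = 7.86e-05). *Fzd7*, a WNT receptor, had one of -0.44 (SE 0.07, edgeR adjusted p = 1.37e-05), and *Skil*, a repressor of SMAD proteins, one of -0.51 (SE 0.10, edgeR adjusted p = 0.0123). *Tmem145*, a membrane protein, fell from 5.57 ± 1.03 to 1.66 ± 0.293 CPM, beside 4.43 ± 0.644 and 5.06 ± 1.19 CPM (SD, n = 3; interaction -1.91, SE 0.42, edgeR adjusted p = 0.00282, DESeq2 adjusted p = 0.0615).

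Gene lists were read by their counts, beside the 1.4% of all genes tested that were called higher and the 1.09% called lower, and by their medians, beside a median interaction of -0.0027 over all genes tested. Medians are over tested members, and calls in the lists could rest on 1 library: the number called in every fit that left out 1 library is given beside the count. Of 25 head organizer and anterior mesendoderm genes 15 were tested. Their median was 0.83, or 0.48 without *Hesx1*, *Foxa2* and *Cyp26a1*, which reached 10 counts in the induced wild-type group alone. In this list 5 members were called higher: *Gpc4*, *Shisa2* (interaction 1.40), which holds Frizzled and FGF receptors inside the cell, the WNT receptors *Fzd8* (1.13) and *Fzd5* (0.63), and *Sfrp1*. *Lefty1*, a NODAL antagonist, was called lower (-0.45), and 5 of the 6 calls held in all 12 fits. *Otx2*, a head gene, had 115 ± 9.33 and 118 ± 9.32 CPM in the wild-type line and 174 ± 7.70 and 164 ± 11.4 CPM in the mutant line (SD, n = 3); its interaction of 0.12 (SE 0.09) was not called (edgeR adjusted p = 0.653).

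Germ layer lists differed in their calls. Of 11 neural ectoderm genes, 3 were called higher, among them *Pax6* and *Zic2* (0.26), and *Sox3* lower (-0.68), with a list median of 0.26 and 2 calls held in all 12 fits. Of 7 streak and mesoderm genes, *Eomes* was called higher and *Lhx1* lower, with a list median of 0.56 and the call of *Eomes* held. None of 6 definitive endoderm genes was called, nor any of the 24 hypoxia and glycolysis genes. The medians of these last lists were 0.06 and -0.03.

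Pluripotency lists went both ways. Of 21 naive genes, *Gbx2* (1.62) and *Tcl1* (1.12) were called higher, and *Fgf4* (-0.36), *Pou5f1* and *Dppa5a* (-0.24) lower, with a list median of -0.17 and 1 call, that of *Pou5f1*, held in all 12 fits. Of 21 formative epiblast genes 3 were called higher, among them *Fgf5* and *Zic2*, and 6 lower (*Pou3f1*, *Foxd3*, *Sox3*, *Dnmt3a*, *Sall2* at -0.57 and *Lef1* at -0.47), with a median of -0.07 and 6 of 9 calls held.

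Among signalling lists, the FGF and ERK list had 4 of 20 members called higher. These were the ligands *Fgf5* and *Fgf15* (0.77), the receptor *Fgfr2* (1.46) and the phosphatase *Dusp4*; the ligand *Fgf4* was lower, the list median was 0.14, and 4 of 5 calls held in all 12 fits. The WNT list had 4 of 18 higher (*Ccnd2*, *Sfrp1*, *Fzd5* and *Fzd2*, the last at 0.47) and 2 lower, *Fzd7* and the nuclear effector *Lef1*, with a median of 0.23 and 4 of 6 calls held. Of 16 NODAL genes 2 were lower, *Skil* and *Lefty1*, and of 13 BMP genes 1 was higher, *Id3*, although the median of that list was -0.21; the calls of *Skil* and *Id3* held. Of 15 Notch genes, *Dll3* and the receptor *Notch2* (0.49) were higher and *Hes6* (-0.44) lower, with a median of -0.10, and the call of *Dll3* alone held.

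At the cell surface, 3 of 19 adhesion genes were called higher, *Emb* and the cadherins *Cdh11* (2.06) and *Cdh3* (0.58), and 2 lower, *Itga3* and *Kirrel2* (-1.47). Of 22 guidance genes 5 were higher (*Ephb1*, *Epha7* at 1.21, *Sema3f* at 1.42, *Ntn1* at 1.23 and *Robo1* at 0.58) and 3 lower (*Sema6a*, *Epha2* at -0.52 and *Unc5b* at -0.29). The medians of the 2 lists were 0.01 and 0.10, and 2 of 5 and 5 of 8 calls held in all 12 fits. Of 19 interferon genes *Ifitm1* and *Ifitm3* (0.90) were higher and *Irf1* and *Bst2* (-0.36) lower, with a median of -0.28 and 3 of 4 calls held.

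In 6 other lists 1 member was called. It was *Enpp2* among 9 genes of lysophospholipid mediators, *Emb* among 11 monocarboxylate genes, *Ccnd2* among 20 G1 genes, *Dnmt3a* among 14 DNA methylation genes, *Rxrg* among 11 retinoid genes and *Lamb1* among 15 basement membrane genes. The medians of these lists ran from -0.15 to 0.12, and all 6 calls held in all 12 fits. *Enpp2*, *Emb* and *Ccnd2* are given markers of the interaction, so their calls were known beforehand and say nothing about these lists. The same holds for *Dusp4* in the FGF and ERK list, *Ccnd2* in the WNT list and *Emb* in the adhesion list.

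**Figure D4:**
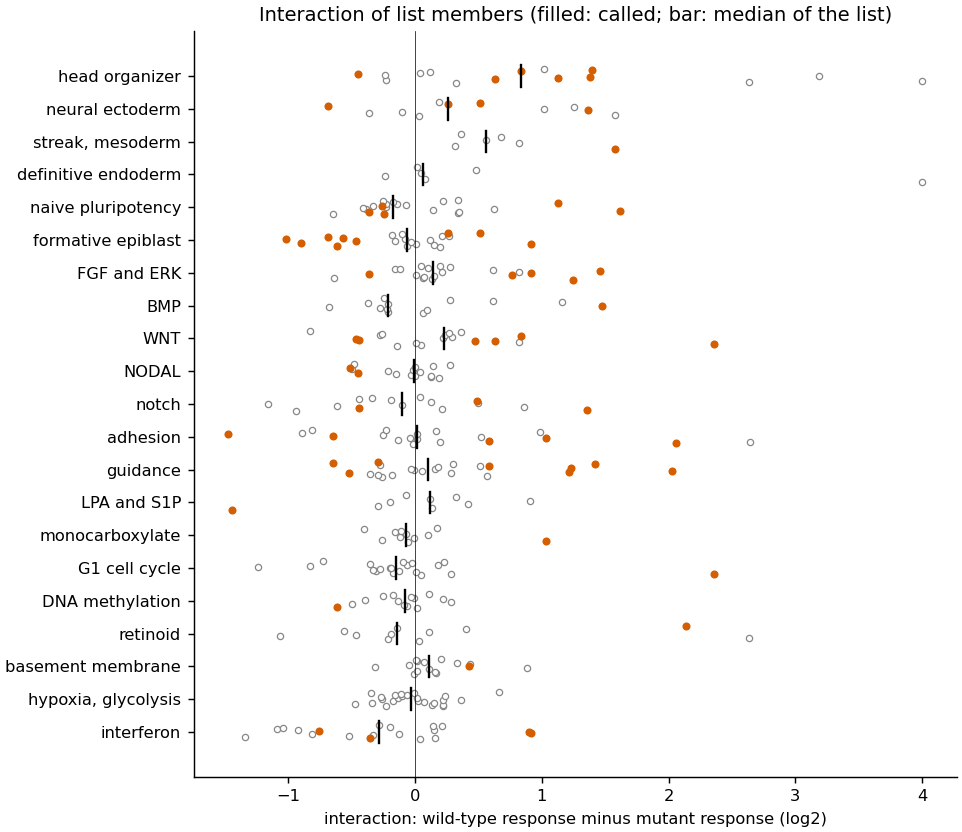
Interaction (log2, wild-type minus mutant response, horizontal axis) of each tested member of the 21 pathway lists except *Lhx1*, 1 row per list. Filled points are called, and bars are list medians, which include *Lhx1* in the streak and mesoderm list. The head organizer list has a median of 0.83; its 3 open points furthest to the right are *Foxa2*, *Hesx1* and *Cyp26a1*, which reached 10 counts in 1 group alone and are not called.

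Of 47 tested markers of other cell types 2 were called (4.26%, beside 2.49% of all genes tested). Of 10 tested markers of primitive endoderm *Lamb1* was called, of 4 of neural crest *Foxd3*, and no call fell among 5 markers of trophoblast, 11 of germ cells, 9 of fibroblasts, 5 of blood and endothelium and 3 of two-cell-like cells. The summed level of the 20 primitive endoderm genes ran from 316 to 352 CPM in the untreated and 366 to 431 CPM in the induced wild-type line, and from 432 to 483 and 458 to 502 CPM in the mutant line, the order of the genes that moved upward and towards the mutant level. The sum of the 12 germ cell genes was 246 to 262 and 275 to 285 CPM in the wild-type line and 183 to 198 CPM over the 6 mutant libraries. The 11 tested germ cell members had a median wild-type response of -0.03 and a median interaction of 0.07, so the sum does not describe the typical member. In the sums of fibroblast, blood and endothelium, trophoblast and two-cell-like genes, the untreated and induced wild-type libraries overlapped. The 10 neural crest genes summed to 89.2 to 99.3 and 77.4 to 83.0 CPM in the wild-type line and to 90.8 to 107 CPM in the mutant line. This sum holds *Foxd3*, with means of 51.4 and 29.2 CPM in the wild-type line, and cannot be read apart from it. *Lamb1*, with means of 76.3 and 99.3 CPM in that line, is likewise part of the primitive endoderm sum. The part of such cells in the genes called was not tested. Of the defining markers, *Prl3d1* and *Tpbpa* of trophoblast and *Hba-a1* of blood were at 0 in all 12 libraries.

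For 3 genes of the anterior mesendoderm the mutant line held few counts and edgeR did not call the interaction. *Hesx1*, a forebrain homeobox gene, had 0, 2 and 4 counts in the untreated and 61, 39 and 57 in the induced wild-type line, and 0, 1 and 1 and then 1, 2 and 3 in the mutant line. Its interaction was 3.19 (SE 1.63, edgeR adjusted p = 0.406). *Foxa2*, a forkhead factor of mesendoderm, had 2 and 38 counts over the wild-type groups and 6 and 6 over the mutant groups (interaction 3.998, SE 1.23, edgeR adjusted p = 0.069). *Cyp26a1*, which degrades retinoic acid, had 13 and 124, and 8 and 12 (interaction 2.63, SE 0.81, edgeR adjusted p = 0.0695). limma-voom called all 3, with adjusted p of 0.0065, 0.00235 and 0.0129 in that order. Over the alternatives the adjusted p ran to 0.718, 0.310 and 0.387, and edgeR called *Cyp26a1* (adjusted p = 0.0386) once untreated wild-type library 2 was left out. For *Hesx1* the ratio of induced to untreated counts in the wild-type line was 26.0 (95% exact counting interval 11.7 to 71.9). In the mutant line it was 3.03 (0.542 to 30.7). For *Foxa2* the ratios were 18.9 (4.87 to 161) and 1.01 (0.270 to 3.78). For *Cyp26a1* they were 9.47 (5.34 to 18.3) and 1.52 (0.570 to 4.28). All these intervals cover counting error only, on counts summed over the libraries of a group. They leave out the spread between libraries, so comparing them between the lines does not test the interaction. These genes also reached the minimum count of the filter in the induced wild-type group alone. A high wild-type ratio was thus part of how they came to be tested. *Cer1*, *Dkk1* and *Gsc*, secreted antagonists and a homeobox factor of the organizer, had at most 12 counts in any library and were not tested.

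Histone genes of the H3 clusters on chromosome 13 had fitted responses of opposite sign in the 2 lines. *Hist1h3b* (23752267 to 23752886) was at 0.951, 2.03 and 1.79 CPM in the untreated and 2.97, 3.33 and 3.04 CPM in the induced wild-type line. In the mutant line it was at 4.29, 6.11 and 5.56 CPM, and at 2.41, 1.92 and 2.27 CPM with doxycycline. The groups of each line did not overlap, and they moved in opposite directions. Neither arm was called alone (0.94, SE 0.37, edgeR adjusted p = 0.157; -1.27, SE 0.30, edgeR adjusted p = 0.237), while the interaction was 2.21 (SE 0.48, edgeR adjusted p = 0.0024).

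*Hist1h3h* gave an interaction of 2.08 (SE 0.46, edgeR adjusted p = 0.00306). DESeq2 called neither gene, with adjusted p of 0.0582 for *Hist1h3b* and 0.0698 for *Hist1h3h*. Of the 8 tested H3 genes of these clusters, a family gathered after the values were seen, 6 were called higher and all 8 lay above 0, with medians of 1.04 in the wild-type and -0.99 in the mutant response. Summed over the 12 H3 genes in the table, the levels were 9.75, 15.1 and 13.4 CPM and then 27.7, 35.6 and 23.7 CPM in the wild-type line, and 32.0, 44.2 and 42.1 CPM and then 21.9, 18.2 and 19.4 CPM in the mutant line. These genes are near-identical copies between which reads can be split or shared, so their values are uncertain and they are not independent of each other. Of 29 tested replication-dependent histone genes of all classes, the same 6 were the ones called, with medians of 0.43 in the wild-type and 0.12 in the mutant response. Their family summed to 124, 116 and 115 and then 120, 234 and 118 CPM in the wild-type line. In the mutant line it summed to 183, 186 and 204 and then 188, 200 and 171 CPM. The groups of each line overlapped in this sum, and the highest value was that of induced wild-type library 2, which stood apart by *Rn45s*.

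Genes around *Hprt* were read because the transgene may lie beside it. Of 11 tested genes within 1 Mb of *Hprt* (X chromosome, 52988137 to 53021659), the 2 called in the interaction were the glypicans *Gpc4* and *Gpc3* (0.68, SE 0.12, edgeR adjusted p = 0.000196). The wild-type response of *Gpc3* was 0.45 and its mutant response -0.23. In the remaining 8, such as *Ccdc160*, *Zfp36l3*, *Fam122b* and *Phf6*, the fitted response was below 0 in both lines and the interaction was not called. Over all 12322 genes tested, the fitted wild-type response was below 0 in 6256. None of the 8 was called in the mutant response. In the wild-type response the genes just named were called, and *Cxx1a*, *Cxx1b*, *Cxx1c* and *Mospd1* were not. *Ccdc160*, for example, stood at 5.14 and 1.62 CPM in the wild-type line and at 5.21 and 2.48 CPM in the mutant line, with log2 responses of -1.67 (SE 0.36) and -1.06 (SE 0.31). On the whole X chromosome 20 of 448 tested genes were called (4.46%, beside 2.49% of all genes tested), 9 higher and 11 lower.

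**Figure D5:**
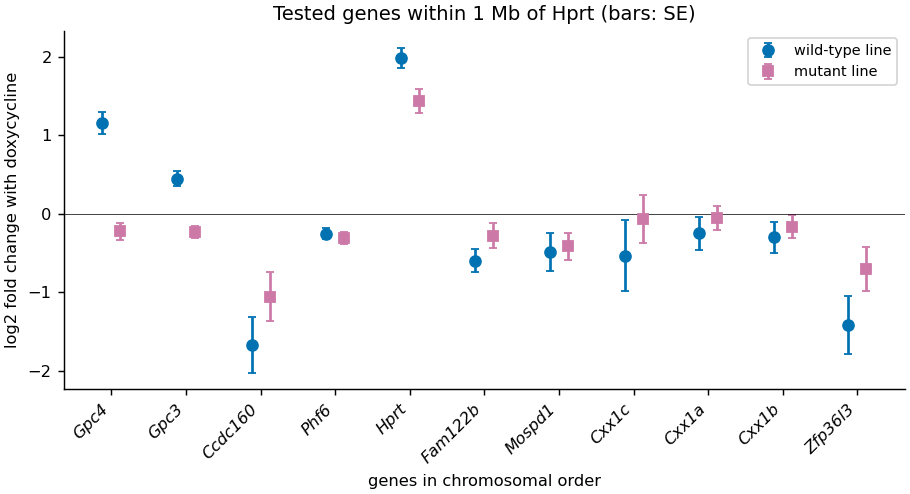
Log2 response to doxycycline (vertical axis, bars are SE) of the 11 tested genes within 1 Mb of *Hprt*, in chromosomal order, in the wild-type line (circles) and the mutant line (squares). *Gpc4* and *Gpc3* differ between the lines, *Hprt* is raised in both, and *Ccdc160* and *Zfp36l3* lie below 0 in both.

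LIM homeodomain proteins are known to bind DNA with the core TAATTA, which reads the same on both strands. Promoter windows from RefSeq (GRCm38.p6, 250 bases before to 50 after an annotated start) were matched by symbol to 229 of the 307 genes called and to 9671 of all genes tested. TAATTA stood in a window of 7 of the 229 (3.06%) and of 304 of the 9671 (3.14%). Over all 32851 windows it stood in 5.29%. The letters occurred in genes of either direction, and 3 stretches of 170 bases are shown to let them be seen, the motif in capitals. They are from *Slc7a8*, an amino acid transporter (chr14:54781967-54782136, minus strand, interaction 1.91, SE 0.27, edgeR adjusted p = 8.32e-07, towards), *Sclt1*, a centriole component (chr3:41742595-41742764, minus strand, 0.75, SE 0.21, edgeR adjusted p = 0.0417, no called line difference), and *Dhx32*, a helicase-like protein (chr7:133760350-133760519, minus strand, -0.42, SE 0.10, edgeR adjusted p = 0.0102, towards). The call of *Sclt1* held in 5 of the 12 fits that left out 1 library, and those of *Slc7a8* and *Dhx32* held in all 12. The first 2 stretches lie upstream of the gene in the GENCODE M21 annotation, and that of *Dhx32* lies in an intron before a second annotated start.
Slc7a8: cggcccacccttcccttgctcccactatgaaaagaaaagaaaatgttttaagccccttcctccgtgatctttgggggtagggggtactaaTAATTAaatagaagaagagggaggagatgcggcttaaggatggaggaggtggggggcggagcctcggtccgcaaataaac
Sclt1: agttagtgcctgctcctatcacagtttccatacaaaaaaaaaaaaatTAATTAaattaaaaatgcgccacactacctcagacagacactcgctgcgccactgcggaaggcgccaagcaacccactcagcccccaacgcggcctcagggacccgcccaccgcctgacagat
Dhx32: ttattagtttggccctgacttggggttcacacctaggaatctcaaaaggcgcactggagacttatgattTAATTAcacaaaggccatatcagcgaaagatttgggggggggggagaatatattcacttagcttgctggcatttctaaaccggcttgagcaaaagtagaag
A match in these windows is a description, and the absence of these letters from the other windows says nothing about binding of LHX1.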

How the data were processed

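Total RNA of 12 libraries was measured by RNA sequencing. The authors deposited raw counts of reads per gene symbol (23086 symbols), and each column was matched to a library by the code in its title. Per the submitters' processing notes, Trimmomatic 0.33, TopHat2 2.1.1, limma and the mm10 genome were used; not given in the sources used here is the tool or annotation behind the counts, or whether strand was used, so reads of overlapping or antisense genes may be counted together. Spreadsheet software had turned 27 symbols into dates, which stayed in the fit (0.15% of the counts) and are not named. Total counts were 4289984 to 4850393 per library, at which small changes of rare transcripts were not detectable.

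A model with a mean for each of the 4 groups was fitted to the 12 libraries in edgeR 4.0.16 (R 4.3.3), with TMM scaling, filterByExpr (minimum count 10, minimum total 15), robust quasi-likelihood tests and Benjamini-Hochberg adjustment over the 12322 genes kept, which held 99.8% of the counts. Each standard error was derived from the F statistic (log2 fold change over root F) and can be too small at few counts. Alternatives were DESeq2 1.42.0, limma-voom (limma 3.58.1), other scalings and filters, a replicate block, other rules for the sort and each library left out. No replicate pair agreed within sampling noise (chi-square per degree of freedom at least 1.11), and all were kept separate. The fit was tested on simulated counts.

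Genes were named by a rule: *Lhx1*, *Hprt*, the 4 given markers, the 4 genes with the largest interaction in each towards and away group and direction, the 3 in each direction with no called line difference (called in all 12 fits that left out 1 library, at least 5 CPM in the highest group, no predicted genes or small RNAs), and up to 2 such genes per pathway list with the smallest adjusted p. List members, *Galnt3*, *Hsph1*, *Otx2*, the low-count organizer genes, the neighbours of *Hprt* and the genes with shown sequences were named beside them, and 2 genes that met the rule are not reported here. The genes, lists and tests were chosen with earlier results of these data known. Positions came from GENCODE M21 (mm10), matched for 12217 genes tested (99.1%), and sequences from RefSeq promoters of GRCm38.p6, the same genome.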

Additional observations from a re-analysis of the deposited data

Results flagged for a closer look

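The difference between the responses of the 2 lines was itself tested, and 307 genes were called. Those given in the report differed between the lines by the following interactions (log2, wild-type minus mutant response, edgeR). Upward genes that moved towards the mutant level were *Ccnd2* (2.35), *Hist1h3b* (2.21), *Hist1h3h* (2.08), *Ephb1* (2.02), *Eomes* (1.58), *Id3* (1.48), *Gpc4* (1.38), *Pax6* (1.36), *Emb* (1.03), *Fgf5* (0.91) and *Lamb1* (0.43). The wild-type responses of *Hist1h3b* and *Hist1h3h* were not called (edgeR adjusted p = 0.157 and 0.0577), and these genes were sorted by sign alone. Downward genes that moved towards it were *Enpp2* (-1.44), *Tcerg1l* (-1.35), *Nphs1* (-1.28), *Pou3f1* (-1.02) and *Irf1* (-0.76). Of the genes that moved towards it, *Ccnd2*, *Enpp2*, *Nphs1* and *Pou3f1* passed the untreated mutant level and ended further from it than they began. For *Enpp2* the line difference was -0.37, and the induced wild-type level minus the untreated mutant level was -1.14. Genes that moved away were *Dusp4* (1.25), *Ifitm1* (0.91), *Hdac6* (0.86) and *Mest* (0.83) upward, and *Cxcl12* (-1.68), *Irs4* (-1.31), *Dcaf12l1* (-1.22), *Stk39* (-0.84), *Sema6a* (-0.65), *Itga3* (-0.64) and *Pou5f1* (-0.26) downward. *Lhx1* (-1.97) was induced in both lines, and its value rests on a few counts in the untreated libraries. With no called line difference stood *Ptges* (2.23), *Rxrg* (2.14), *Dll3* (1.35) and *Sfrp1* (0.83), and downward *Tmem145* (-1.91), *Foxd3* (-0.90), *Mycl1* (-0.80), *Dnmt3a* (-0.61), *Skil* (-0.51) and *Fzd7* (-0.44).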

How the results depend on the processing

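Most counts kept their size under other settings. The interaction gave 304 calls with limma-voom, 306 with RLE and 310 with upper-quartile scaling, 369 without a filter, 290 with a filter of 10 CPM in 3 libraries and 265 without robust estimation. DESeq2 gave fewer: 132 for the interaction (307 with edgeR) and 347 for the wild-type response (655), with 58 genes moving towards (164) and 27 away (54); the cause was not tested. By the sign of the line difference alone, 214 genes moved towards and 93 away, and with a line difference of at least 2-fold 39 and 6, which follows from how many genes each rule sorts. Leaving out 1 library gave 229 to 322 calls in the interaction, 501 to 684 in the wild-type response, 2 in the mutant response throughout, 4914 to 5720 between the untreated lines, 117 to 170 genes moving towards and 36 to 53 away.

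Of 853 results for single genes 841 kept their direction and call, 12 lost the call and none reversed. Apart from *Lhx1*, *Hprt* and the given markers, these genes were named only if called in every fit that left out a library. Those fits are among the alternatives counted here, so the calls kept in them were fixed by that choice and test nothing. *Lhx1* accounted for 6 of the 12 lost calls, its edgeR, DESeq2 and limma-voom adjusted p running from 0.00621 to 0.281 over the alternatives. The other 6 were lost with DESeq2. Over all alternatives adjusted p ran from 0.00136 to 0.0582 for *Hist1h3b*, 0.00137 to 0.0698 for *Hist1h3h*, 0.000743 to 0.0516 for *Tcerg1l*, 0.00116 to 0.0615 for *Tmem145*, 0.00253 to 0.1002 for *Pax6* and 0.000957 to 0.0615 for *Lamb1*.

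Libraries of the same replicate number did not deviate together: over 18 pairs the correlation ran from -0.21 to 0.20, and 2 of 12 libraries correlated best with their own number. With a replicate block 286 genes were called in the interaction, 618 in the wild-type response, 2 in the mutant response and 5502 in the baseline line difference, with 152 moving towards and 49 away.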

Other observations

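Some families whose names recurred among the genes called were gathered after the values were seen, so their counts describe these libraries and test nothing. Of all genes tested 1.4% were called higher, 1.09% were called lower and 49.4% lay above 0. Of 13 tested chaperones and folding enzymes of the endoplasmic reticulum all 13 had an interaction above 0 (median 0.23, with 0.17 in the wild-type and -0.09 in the mutant response), and 4 were called higher: *Calr*, *Canx*, *Hsp90b1* and *Sel1l*. Of 12 genes that process and load antigens for MHC class I, 1 lay above 0 and 4 were called lower: *Erap1*, *Psmb10*, *Psme2* and *Tapbp* (median -0.53, with -0.43 and 0.03). *Ifitm1*, *Ifitm2* and *Ifitm3*, 3 of 4 tested members of that interferon-inducible family, were called higher, while *Parp9* and *Parp12*, 2 of 11 tested poly-ADP-ribose polymerases that interferon also induces, were called lower.

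Of 71 tested subunits of oxidative phosphorylation 5 were called lower, *Atp5j2*, *Cox7a2*, *Cox7b*, *Cox8a* and *Ndufa11*, and 8 lay above 0 (median -0.11, with -0.09 in the wild-type and 0.06 in the mutant response). *Atp5j2* was called in 6 of the 12 fits that left out 1 library, and its mutant response was the larger arm. The summed level of this family was 10585, 10753 and 10921 CPM in the untreated and 10847, 9829 and 10481 CPM in the induced wild-type line. These groups overlapped, and the lowest value was that of induced library 2, which stood apart by *Rn45s*. Of 76 mitochondrial ribosome proteins *Mrps21* was called lower, near the share over all genes and in 2 of the 12 fits that left out 1 library, and 24 lay above 0 (median -0.08). The median over all genes tested was -0.0027.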
